A study of Mus musculus with 9 samples.

Results

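The 10 genes described here encode the growth factors, receptors and oxygen-responsive regulators through which a growing retina calls for blood vessels: Vegfa, its receptors Flt1 and Kdr, the angiopoietins Angpt1 and Angpt2, their receptor Tek, the hypoxia-inducible factors Hif1a and Epas1, the oxygen sensor Egln3, and Pdgfa. They were given as a list of names for their roles in these pathways, and all 10 were found among the 53280 gene symbols of the count table and passed the filter on low counts. Levels came from neural retina of mouse pups at postnatal day 4, either Opn4KO (both copies of Opn4, the gene of the photopigment melanopsin, inactivated) or Opn4WT littermates. Both genotypes were born to crosses of Opn4+/- parents and raised at about 300 lux. Pups were killed 6 to 7 h after lights on (ZT6 to ZT7), and their retinas were dissected in ice-cold oxygenated medium before freezing. Each pool held 4 retinas from 2 animals of 1 genotype. There were 5 knockout and 4 wildtype pools, each read once as a poly-A library with paired reads of 150 bases. Neither sex, litter, strain nor the time spent in oxygenated medium is given in the labels, so any part of these in the levels was not tested.

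VEGF-A is secreted by cells short of oxygen and acts on endothelial cells through KDR, the main signalling receptor, while FLT1 binds it tightly and limits what reaches KDR. Angiopoietin 1 activates the endothelial receptor TEK (also called TIE2) and stabilises vessels, whereas angiopoietin 2 mostly opposes it and is made by endothelial cells that remodel. The hypoxia-inducible factors HIF-1α (Hif1a) and HIF-2α (Epas1) are destroyed in the presence of oxygen after prolyl hydroxylases such as EGLN3 mark them, so their activity is set largely at the level of protein, which RNA counts do not measure. In the mouse the first retinal plexus spreads from the optic nerve over a scaffold of astrocytes during the first postnatal week, and PDGF-A from ganglion cells recruits those astrocytes. The study's title concerns rod number and melanopsin ganglion cells, and the comparison made here asks whether these vascular and oxygen-responsive transcripts differed between the genotypes.

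Opn4 itself was at 1.36 ± 0.29 CPM (counts scaled to library size; mean ± SD) in the knockout pools and 11.7 ± 0.28 in the wildtype pools, a log2 fold change of −3.10 (knockout minus wildtype, as throughout). The count table held 65.5 to 86.1 M counts (M, mega) per pool. Across all 21150 genes tested with edgeR, 3.59% were called at an adjusted p under 0.05, 1.34% as higher and 2.25% as lower in the knockout. Of the 10 genes, 1 was called higher (Hif1a) and 1 lower (Angpt1). These were also the members whose CPM ranges did not overlap between genotypes, which held for 8.29% of all tested genes, 3.92% higher and 4.37% lower. At an unadjusted p under 0.05 stood 4 of the 10 (Angpt1, Hif1a, Egln3 and Vegfa), against 16.5% of all tested genes. A negative log2 fold change was seen in 6 of 10, against 49.6% of all tested genes.

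**Figure D1:**
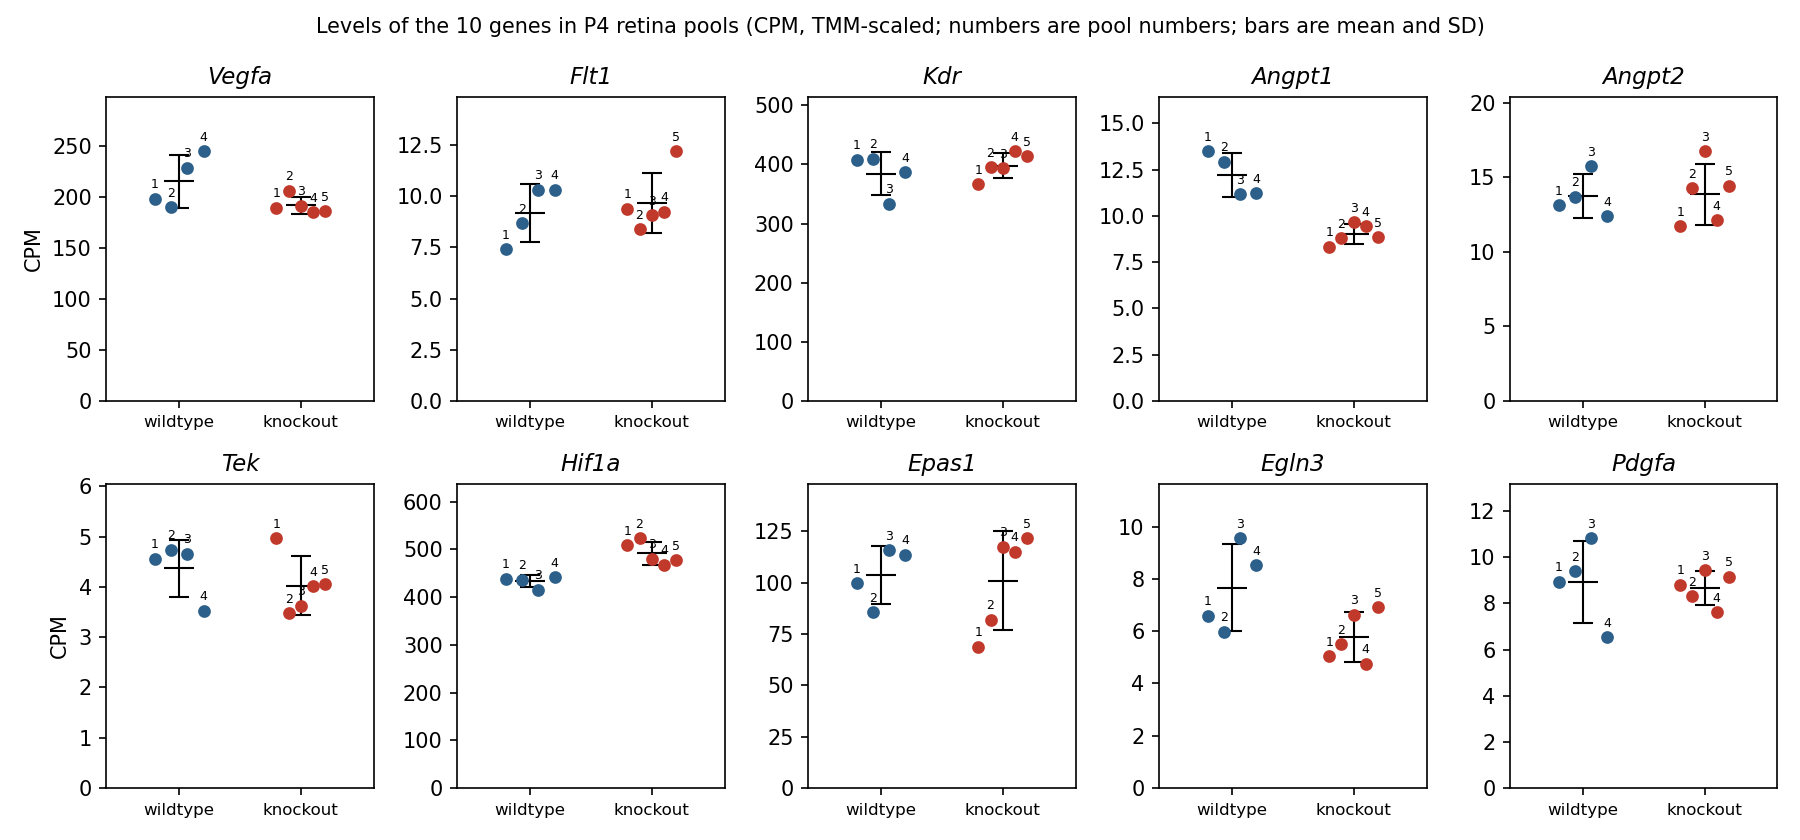
Level of each of the 10 genes in every pool, as CPM on a linear axis that starts at 0, with wildtype pools in blue and knockout pools in red. Numbers beside points are pool numbers, which are not stated to pair pools across genotypes, and bars give the mean and SD of 4 wildtype or 5 knockout pools. For Angpt1 all knockout points lie at or under 9.67 CPM and all wildtype points at or above 11.2, and for Hif1a all knockout points lie at or above 468 and all wildtype points at or under 442.

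The 10 genes spanned a wide range of expression. On the TPM scale, which divides by transcript length and so allows genes to be set side by side, Vegfa was highest at 260.2 ± 28.1 TPM (mean ± SD, n = 9 pools). Hif1a followed at 187 ± 14.997 TPM and Kdr at 111 ± 7.48 TPM. Below them on this scale came Epas1 (31.6 ± 6.33 TPM), Pdgfa (15.6 ± 1.99 TPM) and Angpt2 (7.89 ± 1.04 TPM). The lowest levels were those of Angpt1 (4.83 ± 0.82 TPM), Egln3 (4.74 ± 1.13 TPM), Flt1 (2.60 ± 0.37 TPM) and Tek (1.63 ± 0.19 TPM). Angpt1 and Egln3 were the only neighbours in this order whose ranges over the 9 pools overlapped.

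The receptors stood far apart from each other on the same scale. Vascular endothelium was present in every pool, as its defining markers showed: Pecam1 was at 5.72 ± 0.54 TPM, Cdh5 (VE-cadherin) at 4.38 ± 0.44 TPM and the tight junction gene Cldn5 at 18.5 ± 1.59 TPM. The TPM level of Kdr was above those of all 3 markers in every pool, whereas Flt1 and Tek were below all 3. In the mouse retina Kdr is known to be expressed by neural cells as well as by vessels. The ratio of Kdr to Flt1 TPM ran from 38.7 to 52.3 in knockout and from 35.6 to 58.8 in wildtype pools, with the knockout range inside the wildtype range.

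**Figure D2:**
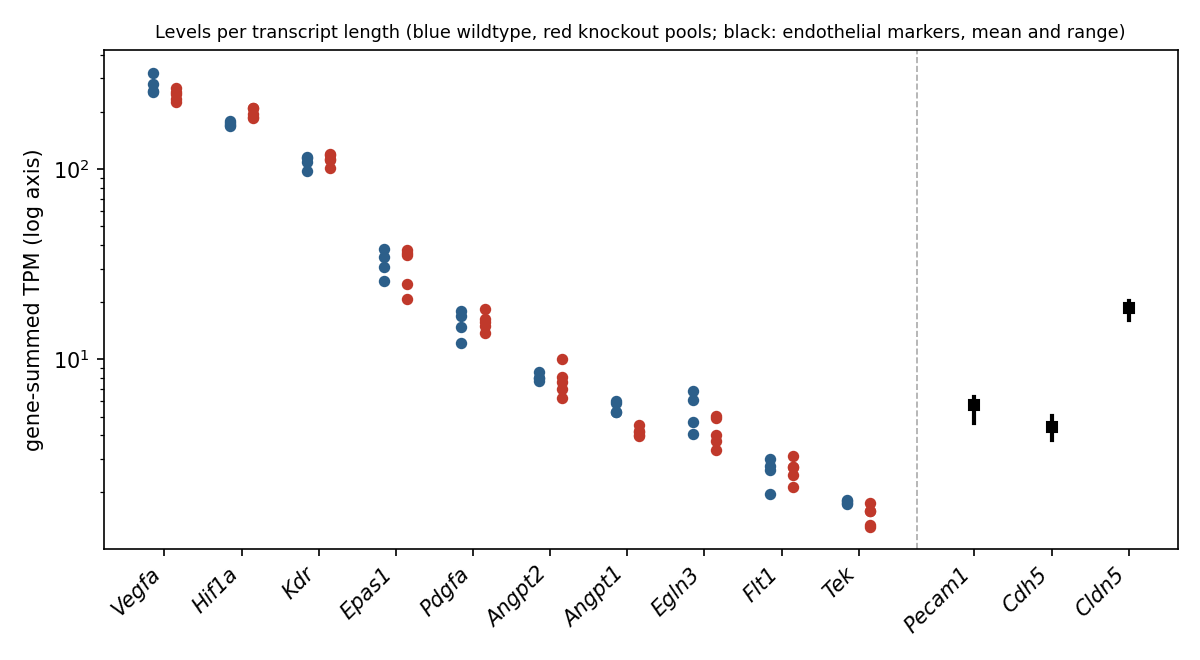
Gene-summed TPM of the 10 genes in each pool on a logarithmic axis, in falling order of their mean, with wildtype pools in blue and knockout pools in red. Black squares and lines give the mean and range over 9 pools of the endothelial markers Pecam1, Cdh5 and Cldn5, and Kdr at 111 TPM sits above all 3 while Flt1 at 2.60 and Tek at 1.63 sit below.

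Vegfa, the ligand, lies on chromosome 17 (46016993 to 46032369, minus strand, GRCm38). Its level was 189, 206, 191, 185 and 186 CPM in knockout pools 1 to 5, and 198, 189.8, 229 and 245 CPM in wildtype pools 1 to 4. Wildtype pools 3 and 4 were above every knockout pool, while wildtype pools 1 and 2 lay within the knockout range. The log2 fold change was −0.17 (SE 0.07, 95% interval −0.32 to −0.02), with an unadjusted p of 0.0298 and an adjusted p of 0.238 in edgeR, so Vegfa was not called. Its log2 change stayed negative under all 20 alternative settings, from −0.23 to −0.10, with −0.10 when wildtype pool 4 was left out, and it was called under none of them. The authors' deposited table gives Vegfa a log2 change of −0.19 with a q of 0.193. Of the 13 transcript rows of Vegfa in the TPM table, 4 were at 0 in every pool, and the leading row held 34.3% of the gene's TPM. That leading row was at 83.2 ± 11.2 TPM in knockout and 96.7 ± 10.9 TPM in wildtype, and no Vegfa row was called.

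Its receptors showed no called change. Flt1, the decoy-like receptor on chromosome 5 (147561604 to 147726011, minus strand), was at 9.38, 8.38, 9.07, 9.24 and 12.2 CPM in the knockout pools and 7.404, 8.68, 10.3 and 10.3 CPM in the wildtype pools. Knockout pool 5 was the highest of the 9 and wildtype pool 1 the lowest, and the genotypes overlapped. The log2 fold change of Flt1 was 0.07 (95% interval −0.20 to 0.35; edgeR adjusted p = 0.845). Kdr, on the same chromosome (75932827 to 75978458, minus strand), was at 366, 395, 394, 422 and 414 CPM in knockout and 408, 410, 334 and 387 CPM in wildtype. Wildtype pool 3 was the lowest of all. Its log2 fold change was 0.05 (95% interval −0.09 to 0.19; edgeR adjusted p = 0.767). Between 25599 and 35372 counts stood behind each Kdr value, against 590 to 1041 for Flt1.

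Angpt1 was the only member called as lower. This ligand of TEK, on chromosome 15 (42424723 to 42676977, minus strand), was at 8.34, 8.79, 9.67, 9.43 and 8.86 CPM in knockout pools 1 to 5 and at 13.5, 12.9, 11.2 and 11.2 CPM in wildtype pools 1 to 4. The highest knockout pool was below the lowest wildtype pool. Mean CPM in the knockout was 73.9% of that in wildtype, a log2 fold change of −0.44 (SE 0.09, 95% interval −0.62 to −0.25; edgeR adjusted p = 0.0112). Counts of 629 to 1162 per pool stood behind these values. The call held in 16 of 20 alternative settings, among them all 9 that left out 1 pool (adjusted p 0.0129 to 0.0492).

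In the TPM table Angpt1 had the same direction. On TPM the knockout pools were at 4.01, 4.21, 4.53, 4.17 and 3.97 and the wildtype pools at 6.02, 5.92, 5.31 and 5.31, again without overlap. With limma on log2(TPM + 0.5), where the added constant shrinks the change of a low gene, the log2 change was −0.39 with an adjusted p of 0.0515. That test called 2.16% of 15295 genes and none of the 10 members. The authors' deposited table gives a log2 change of −0.33 and a q of 0.104 for Angpt1. Across all genes of the authors' deposited table, 1.46% had a q under 0.05, and no member was among them. Without knockout pools 1 and 2, which had the highest sums of lens and of rod genes, the log2 change of Angpt1 was −0.39. Its edgeR adjusted p was then 0.0640. An antisense gene, Gm17473, covers 14.2% of the exon bases of Angpt1 and had 0 to 7 counts per pool.

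Angpt2 and Tek were not called. Angpt2, the context-dependent antagonist on chromosome 8 (18690263 to 18741562, minus strand), was at 11.7, 14.3, 16.7, 12.1 and 14.4 CPM in knockout and 13.1, 13.7, 15.8 and 12.4 CPM in wildtype. The wildtype values all lay within the knockout range, and the log2 fold change was 0.01 (95% interval −0.22 to 0.25; edgeR adjusted p = 0.976). Tek, on chromosome 4 (94739289 to 94874976, plus strand), was at 4.97, 3.48, 3.63, 4.01 and 4.05 CPM in knockout and 4.56, 4.74, 4.66 and 3.53 CPM in wildtype. Wildtype pool 4 stood below the other 3 wildtype pools, and knockout pool 1 was the highest of all. The log2 fold change of Tek was −0.12 (95% interval −0.41 to 0.18; edgeR adjusted p = 0.739), from 236 to 393 counts per pool. The ratio of Angpt2 to Angpt1 TPM was 1.746, 1.800, 2.213, 1.498 and 2.024 in knockout pools 1 to 5 and 1.274, 1.441, 1.497 and 1.4999 in wildtype pools 1 to 4. Knockout pool 4 lay just under wildtype pool 4, so the ranges of this ratio met, and the ratio was not tested.

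**Figure D3:**
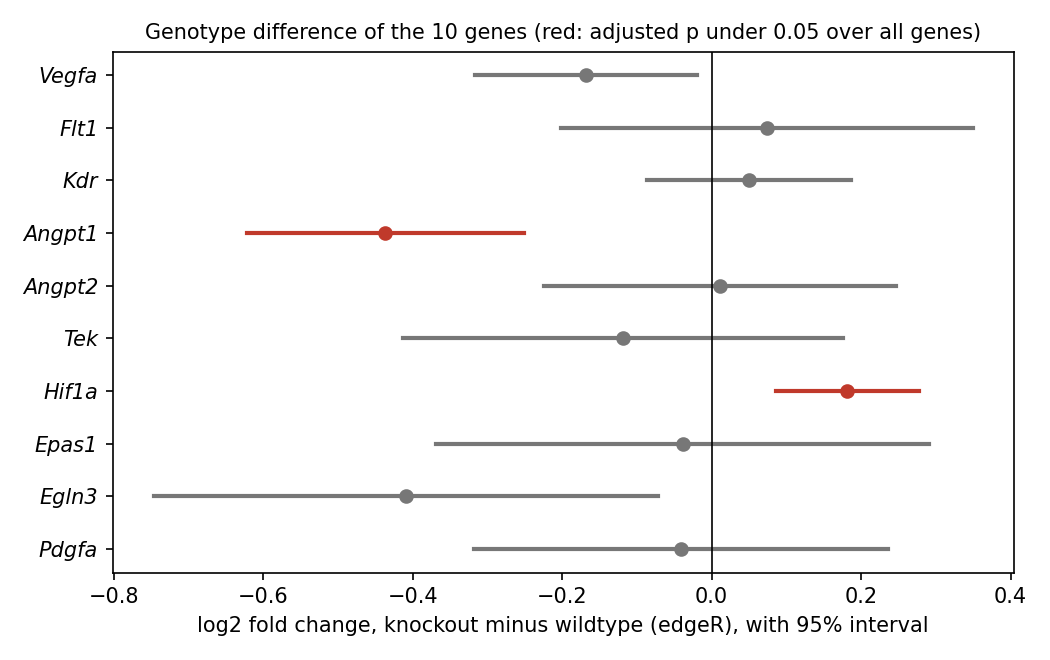
Log2 fold change of each gene, knockout minus wildtype, with its 95% interval from edgeR over 5 knockout and 4 wildtype pools. Red marks the genes called at an adjusted p under 0.05 over all genes tested, Angpt1 at −0.44 and Hif1a at 0.18, and the intervals of Vegfa and Egln3 also lie wholly below 0 although neither gene was called.

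Hif1a was the only member called as higher. It encodes the oxygen-labile subunit of HIF-1 and lies on chromosome 12 (73901375 to 73947530, plus strand). Knockout pools 1 to 5 were at 509, 523, 481, 468 and 477 CPM and wildtype pools 1 to 4 at 439, 437, 416 and 442 CPM. The lowest knockout pool was above the highest wildtype pool, and knockout pools 1 and 2 were the highest. Mean CPM in the knockout was 113% of that in wildtype, a log2 fold change of 0.18 (SE 0.04, 95% interval 0.09 to 0.28; edgeR adjusted p = 0.0393), from 31264 to 40734 counts per pool.

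The call of Hif1a lay near the threshold and held in 2 of the 9 fits that left out 1 pool. The adjusted p in edgeR was 0.0791, 0.110 and 0.0665 without knockout pool 1, 2 or 3, and 0.0915, 0.0885, 0.0613 and 0.0802 without wildtype pool 1, 2, 3 or 4, with log2 changes of 0.16 to 0.20 over all 9 single pools left out. Without knockout pools 1 and 2 together it was 0.168, with a log2 change of 0.13. TPM gave a log2 change of 0.18 and a limma adjusted p of 0.0888, and 187 to 209 TPM in the knockout did not overlap 169.6 to 179 TPM in wildtype. The authors' deposited table gives Hif1a a log2 change of 0.18 and a q of 0.124. Of the 5 Hif1a transcript rows, the leading row, with 69.4% of the gene's TPM, was at 138 ± 4.01 TPM in knockout and 119 ± 2.33 TPM in wildtype (log2 change 0.21, limma adjusted p = 0.0824). The TPM table names no transcripts, so which isoform this row is was not determined here. Over all members, 27 of 45 transcript rows passed the filter on low TPM and none was called, against 0.178% of 48214 rows tested.

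Epas1, which encodes HIF-2α and is expressed in endothelium and astrocytes among other cells, was not called. It lies on chromosome 17 (86753700 to 86833410, plus strand) and was at 68.8, 81.9, 118, 115 and 122 CPM in knockout and 99.6, 85.7, 116 and 114 CPM in wildtype. Knockout pools 1 and 2 were the lowest of the 9. The log2 fold change was −0.04 (95% interval −0.37 to 0.29; edgeR adjusted p = 0.938), and it was 0.18 without knockout pools 1 and 2 (adjusted p = 0.394). Those pools also had the highest ratios of Hif1a to Epas1 TPM, 10.1 and 8.38, against 4.47 to 6.61 in the other 7 pools. They held 14.4 and 11.1 CPM summed over 7 lens genes, against 5.70 to 6.595 in the others, and 26.3 and 30.2 CPM summed over 6 astrocyte genes, against 35.5 to 50.3. The part of lens tissue or astrocyte content in the Epas1 level was not tested.

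Egln3, a HIF prolyl hydroxylase whose own gene is a known HIF target, is on chromosome 12 (54178981 to 54203860, minus strand). Its level was 5.04, 5.50, 6.63, 4.75 and 6.92 CPM in knockout and 6.58, 5.98, 9.55 and 8.52 CPM in wildtype. Wildtype pools 3 and 4 stood above all knockout pools, the same pools in which Vegfa was highest. The log2 fold change was −0.41 (SE 0.16, 95% interval −0.75 to −0.07), with an unadjusted p of 0.0212 and an edgeR adjusted p of 0.198, so it did not pass the adjustment over all genes. On 354 to 792 counts per pool, its sign was negative in all 20 alternative settings and it was called in none.

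The promoters of Hif1a and Egln3 are shown because Hif1a RNA was called higher, Egln3 is a known HIF target, and both hold ACGTG, the core of the hypoxia response element. Egln3 itself was not called. The windows run from 250 bases before to 50 after the RefSeq gene start on GRCm38.p6 (chr12:73907617-73907916, plus strand, for Hif1a and chr12:54203825-54204124, minus strand, for Egln3), written 5′ to 3′ on the gene's strand, with ACGTG or its reverse complement CACGT in capitals.
Hif1a: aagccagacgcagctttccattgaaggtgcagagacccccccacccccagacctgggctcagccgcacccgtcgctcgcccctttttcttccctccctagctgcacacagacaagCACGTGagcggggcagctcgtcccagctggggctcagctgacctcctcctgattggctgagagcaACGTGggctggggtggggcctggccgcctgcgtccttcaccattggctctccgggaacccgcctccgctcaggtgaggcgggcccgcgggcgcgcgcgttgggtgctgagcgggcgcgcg
Egln3: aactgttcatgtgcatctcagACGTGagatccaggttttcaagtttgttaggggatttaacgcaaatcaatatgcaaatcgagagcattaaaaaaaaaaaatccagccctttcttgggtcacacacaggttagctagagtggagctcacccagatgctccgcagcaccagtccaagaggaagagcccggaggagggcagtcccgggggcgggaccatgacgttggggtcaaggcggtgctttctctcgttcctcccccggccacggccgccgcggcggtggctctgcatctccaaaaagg
The 6 capitals CACGTG in Hif1a hold the motif on both strands, which with the second stretch makes 3 matches, and Egln3 has 1 match. The Hif1a window lies inside the gene span given above, downstream of its start at 73901375. Searched on both strands, ACGTG stood in 3 of 9 windows (33.3%) of the 7 members found in that table, the other window being a downstream start of Vegfa. The same letters stood in 19.6% of all 32851 promoter windows and in 14 of 25 windows (56%) of 17 genes in the HIF target list described below. A match to these letters is a description of the window and does not show binding.

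Pdgfa, the astrocyte mitogen, lies on chromosome 5 (138976014 to 138997370, minus strand). It was at 8.82, 8.32, 9.45, 7.62 and 9.16 CPM in knockout and 8.95, 9.39, 10.8 and 6.54 CPM in wildtype. Wildtype pools held both the highest and the lowest value, and the log2 fold change was −0.04 (95% interval −0.32 to 0.24; edgeR adjusted p = 0.920). An antisense gene, 6330403L08Rik, shares 26.1% of the exon bases of Pdgfa and is its only near-identical match among annotated transcripts. Since the labels do not say whether counting used the strand, reads of Pdgfa and of that gene, at 16.6 ± 1.89 CPM in knockout and 14.6 ± 1.87 CPM in wildtype, may not be told apart. For Hif1a, the antisense gene Gm15283 covers 5.6% of its exon bases and was at 2.98 ± 0.30 and 3.40 ± 1.02 CPM, and Gm49321 on the same strand shares 2.51% and was not analysed here.

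Genes that work with these 10 were described as 7 lists of 55 further genes, of which 54 were tested and none was called, 29 with a negative and 25 with a positive log2 change. At an unadjusted p under 0.05, edgeR had 16 of the 54 (16.5% over all tested genes), and DESeq2 called 7 (Cxcr4, Ndrg1, Pfkfb3, Dll4, Slc2a1, Apln and Pgk1), against 9.19% of the 16225 genes to which it gave an adjusted p. The median log2 fold change of the 54 was −0.02, beside 0.00 over all tested genes. In the VEGF family the co-receptors Nrp2 (69.1 ± 5.99 CPM in knockout, 68.7 ± 4.42 in wildtype) and Nrp1 (33.1 ± 2.52 and 32.6 ± 3.46 CPM) had the highest counts. Neither Tie1, the orphan partner of TEK (7.31 ± 0.91 and 7.31 ± 0.41 CPM), nor Ptprb, the phosphatase that restrains TEK (7.55 ± 1.10 and 6.44 ± 0.86 CPM), was called. Pdgfra, the receptor through which PDGF-A acts on astrocytes, was at 101 ± 16.1 and 93.7 ± 11.1 CPM, and Pdgfc at 9.38 ± 0.98 and 10.2 ± 0.99 CPM. In norrin signalling, which guides retinal vessels through a Wnt-type receptor, Lrp5 was at 54.4 ± 5.79 and 58.2 ± 3.11 CPM and Tspan12 at 14.8 ± 1.55 and 13.9 ± 1.42 CPM.

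Regulators and targets of the hypoxia factors held no called gene. Among 8 genes of oxygen sensing, Cited2, which competes with HIF for its coactivator, was at 139 ± 3.88 CPM in knockout and 135 ± 7.15 in wildtype, and Arnt2, a dimer partner, at 127 ± 8.01 and 136 ± 6.69 CPM. The 20 HIF targets had a median log2 change of −0.14, with 15 negative and 5 positive values and none called. Without wildtype pool 3 that median was −0.077. At an unadjusted p under 0.05, edgeR had 9 of the 20, against 16.5% of all tested genes. Ldha, which makes lactate, was at 1750 ± 107 and 1748 ± 180.1 CPM (log2 change 0.00, edgeR adjusted p = 0.996). Ndrg1, a stress-responsive target, was at 751 ± 41.7 and 666 ± 4.66 CPM, a log2 change of 0.17 that missed the threshold (adjusted p = 0.0550). The glucose transporter Slc2a1 (log2 change −0.27, adjusted p = 0.104) and the glycolytic enzyme Pgk1 (−0.25, adjusted p = 0.1004) had values in the other direction, and both were named after their values were seen. CPM ranges did not overlap for Ndrg1, higher in the knockout, and for Pgk1 and P4ha2, lower. P4ha2 (log2 change −0.26, edgeR adjusted p = 0.173) was also named after its values were seen. Ranges without overlap were found in 8.29% of all tested genes.

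The 8 sprouting and tip cell genes had 4 negative and 4 positive log2 changes, with a median of −0.05. At an unadjusted p under 0.05, edgeR had 5 of the 8, against 16.5% of all tested genes. Nearest the threshold stood Cxcr4 and Dll4, both negative. Cxcr4, a chemokine receptor of tip cells that neurons and progenitors also use, was at 40.3 ± 5.62 CPM in knockout and 51.2 ± 3.79 in wildtype (log2 change −0.35, edgeR adjusted p = 0.0612). Dll4, the Notch ligand of tip cells, was at 18.6 ± 1.19 and 22.4 ± 1.87 CPM (−0.27, adjusted p = 0.0674), and is named here after its values were seen. For both genes the CPM ranges of the genotypes did not overlap, which held for 8.29% of all tested genes. Plxnd1, a semaphorin receptor of endothelium, was at 51.4 ± 3.68 and 57.6 ± 4.16 CPM (−0.16, adjusted p = 0.206). Apln, the ligand of the apelin receptor, also named after its values were seen, lay in the other direction at 8.68 ± 1.42 and 6.56 ± 0.86 CPM (0.40, adjusted p = 0.131). With a filter at a mean of 1 CPM, edgeR called 3 genes over the 7 pathway lists together. They were Cxcr4 and Dll4 of this list and Ndrg1 of the HIF targets, beside 5.45% of all genes called under that filter.

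**Figure D4:**
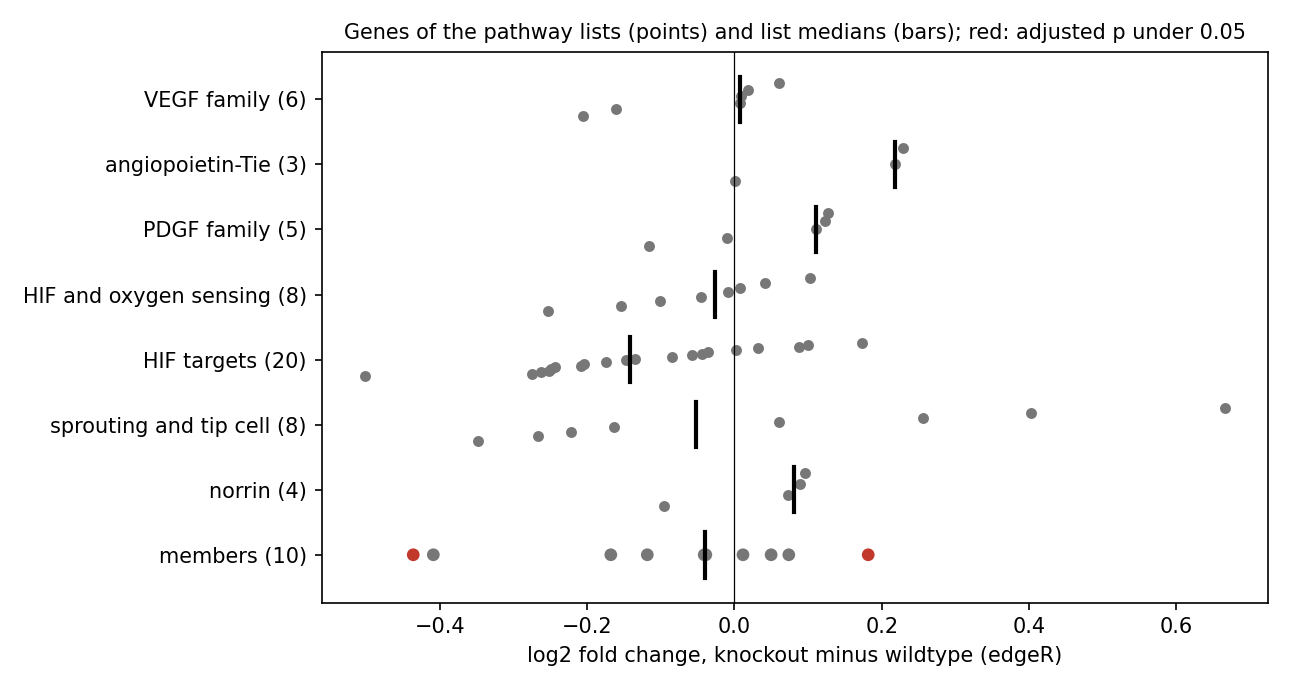
Log2 fold change (edgeR, knockout minus wildtype) of each tested gene in 7 lists and of the 10 genes described here, with the number of genes in brackets and list medians as black bars. Red marks an adjusted p under 0.05, which only Angpt1 and Hif1a reached, and the HIF target list has its median at −0.14 (−0.077 without wildtype pool 3) with 15 of 20 points left of 0.

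Markers of the vessels and of their astrocyte scaffold were read beside the members. None of 31 endothelial, mural and astrocyte genes was called, with a median log2 change of 0.00, 7 of them at an unadjusted p under 0.05 (16.5% over all tested genes), and 2 called by DESeq2 (Rgs5 and Mmrn2; 9.19% over all genes). The 16 endothelial genes summed to 78.7 to 89.2 CPM in knockout and 81.3 to 89.4 CPM in wildtype pools, led by Cldn5 (12.7 ± 1.27 and 14.1 ± 0.19 CPM) and Egfl7 (11.3 ± 1.14 and 13.4 ± 2.62 CPM). Mural cells, which are a main source of angiopoietin 1 in many vessel beds, summed over 9 genes to 58.2 to 71.5 CPM in knockout and 54.0 to 58.4 CPM in wildtype, led by Rgs5 (27.5 ± 4.80 and 21.7 ± 1.83 CPM) and Notch3 (15.1 ± 2.31 and 16.8 ± 0.34 CPM). Of the 9 mural genes, 4 had negative and 5 positive log2 changes. Their mean log2 CPM relative to all pools overlapped, at −0.29 to 0.17 in knockout and −0.105 to 0.089 in wildtype. Astrocyte genes summed to 26.3 to 41.1 and 36.8 to 50.3 CPM, led by Gfap (15.2 ± 2.19 and 19.3 ± 3.32 CPM) and Pax2 (9.72 ± 2.60 and 12.8 ± 1.54 CPM). Of the 6 astrocyte genes, 4 had negative and 2 positive log2 changes. On mean log2 CPM relative to all pools the astrocyte list overlapped, at −0.37 to 0.28 in knockout and −0.071 to 0.34 in wildtype. In bulk RNA, fewer cells of a type and less RNA per cell cannot be told apart.

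Some markers of other cell types were called, and the part of those cell types in the levels of the members was not tested. Red blood cell genes were called lower in 5 of 7 (Hbb-bs, Hba-a1, Hba-a2, Hbb-bt and Alas2) and summed to 74.0 to 99.6 CPM in knockout and 110.5 to 337 CPM in wildtype, highest in wildtype pool 3. Rod genes were called higher in 6 of 8 (among them Nrl, Sag, Pde6b, Cngb1 and Cnga1, with Nr2e3 also among the highest counts) and summed to 2782 to 3903 and 2415 to 2659 CPM. Rod calls numbered 4 without knockout pools 1 and 2, and 3 without wildtype pool 1 or wildtype pool 4. All 8 progenitor and cell cycle genes were called lower (Mki67, Top2a, Pcna, Ccna2, Mcm6, Ccnb1, Cdk1 and Aurkb), at 791 to 941 and 1280 to 1445 CPM. Of 7 tested lens genes 1 was called higher, Cryaa, with Bfsp1 and Crybb1 the most counted, and knockout pools 1 and 2 carried the lens signal. Called higher were also Rlbp1 and Car14 of Müller glia (most counted: Dkk3 and Glul), Slc17a6 of ganglion cells (Nefl and Thy1) and Prox1 and Calb1 of horizontal cells (Tfap2b). Pax6 and Gad2 of amacrine cells were called lower, while Gad1, also among the most counted, had a positive log2 change (0.10) and was not called. These 4 lists held genes of both signs. Log2 changes were negative in 3 and positive in 5 Müller glia genes, and negative in 5 and positive in 3 ganglion cell genes. For horizontal cells 1 was negative and 5 positive, and for amacrine cells 4 and 3. No gene of microglia (Csf1r among the most counted) or of pigment epithelium and choroid (Pmel, Dct) was called.

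**Figure D5:**
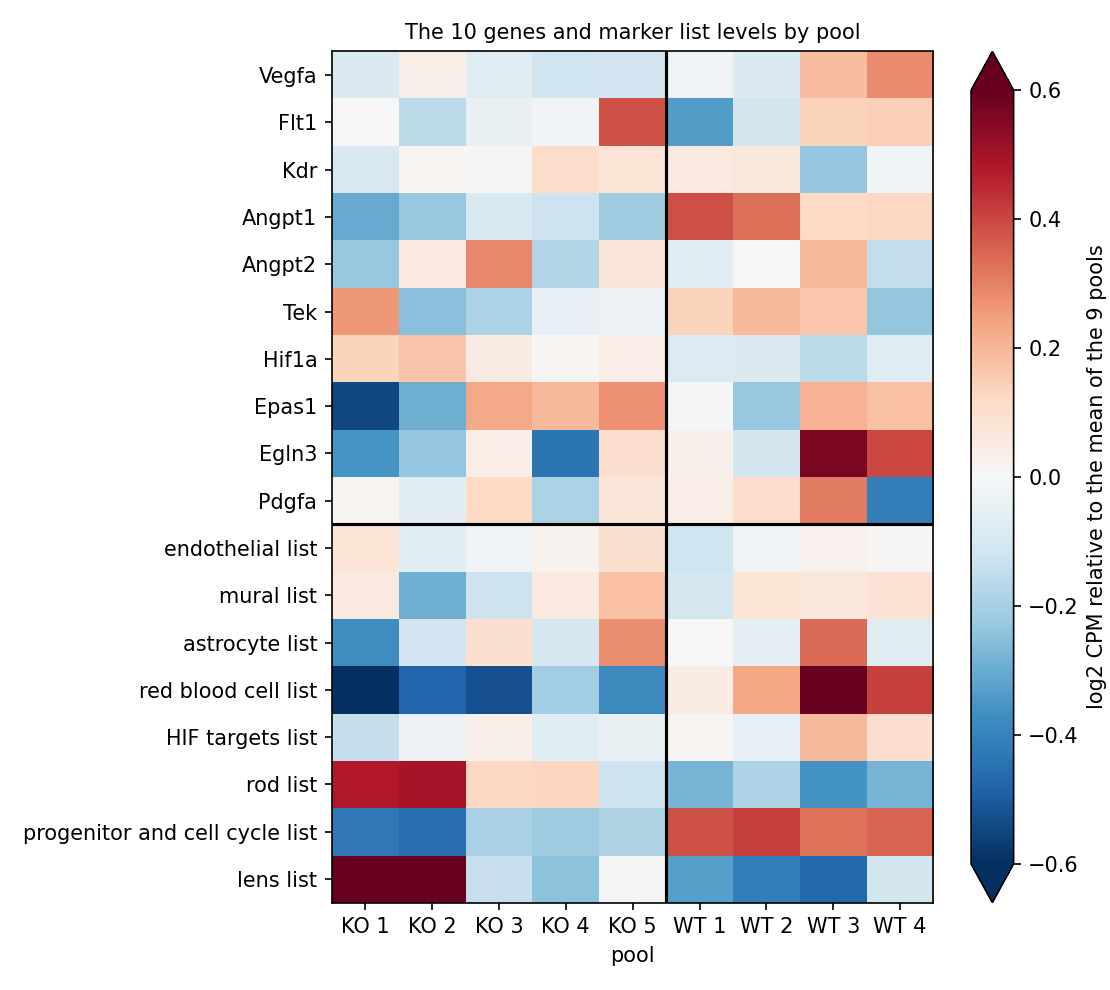
Log2 CPM of the 10 genes (top) and mean log2 CPM of marker and HIF target lists (bottom) in each of 9 pools, relative to the mean of all pools. The colour scale stops at 0.6 in both directions, and darker cells beyond it are clipped. Angpt1 is lower and Hif1a higher in every knockout pool than in any wildtype pool. The red blood cell, rod and progenitor lists also separate by genotype. Epas1 is lowest in knockout pools 1 and 2, where the lens and rod lists are highest and the progenitor list is lowest.

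Deviations of each gene from its genotype mean were compared over the 9 pools, as descriptions with no test, since pools share their library for all genes. Flt1 varied with the endothelial list (Pearson r 0.87, Spearman coefficient 0.92), and r was 0.74 without wildtype pool 1 and knockout pool 2, the pools farthest from the median. For Kdr r was −0.38, for Tek 0.35 and for Angpt1 −0.65 (−0.78 without the same pools). Among the members themselves, the pairs with the largest r in absolute size were picked after all pairs were seen. They were Hif1a and Epas1 (−0.78), Angpt1 and Vegfa (−0.73), and Angpt1 and Kdr (0.72). Knockout pools 1 and 2 were the highest for Hif1a and the lowest for Epas1, and the r of that pair without them was not computed.

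Genes most alike in this pattern were taken from 15745 candidates with a mean CPM of at least 1. They were A930003O13Rik (r 0.96) and Dnajb4 (0.93) for Vegfa, Trpc1 (0.95) and Mmp2 (0.95) for Flt1, and Rnf214 (0.98) and Vash1 (0.98) for Kdr. Angpt1 was most like Gm5940 (0.98) and Abcg2 (0.95), Angpt2 most like Adi1 (0.97) and Ppme1 (0.97), and Tek most like 2410018L13Rik (0.93) and Cryzl1 (0.91). For Hif1a they were Zfp810 (0.99) and Abcg1 (0.98), for Epas1 Itpa (0.99) and Pdzrn3 (0.98), and for Pdgfa Parl (0.95) and Tomm22 (0.95). Egln3 was most like Cfl2 (0.96) and a row whose symbol spreadsheet software had turned into a date (0.96). With 15745 candidates and 9 pools, a best r this high can arise by chance for any gene, so none is read as a relation.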

How the data were processed

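The authors deposited whole-number counts per gene symbol, unnormalised per the values, by a program not given in the sources used here. Their totals exceed the read depth that the submitters state. The deposited TPM table, here treated as a score because its column sums of 953963 to 1083980 show a rescaling that no source describes, came from kallisto 0.46.1 after Trimmomatic 0.39 on GRCm38, per the submitters' processing notes. It lists transcripts without identifiers, which were summed per symbol. Of its 118489 rows, 1673 without a symbol and 188 with digits for one, together 0.754 to 0.979% of TPM, were left out. The authors' deposited comparison, from sleuth 0.30.8 per those notes, holds, per the file headers, a p-value and a q-value per gene. Its effects are on a natural log scale with wildtype positive, read from Opn4 in the deposited values, and were turned to log2.

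Counts were tested over all genes with edgeR 4.0.16 in R 4.3.3 (filterByExpr, TMM, quasi-likelihood F test, two-sided, Benjamini-Hochberg threshold 0.05), and the test was first tried on simulated data. Rows and genes reaching a TPM of 1 in 4 or more pools were tested with limma 3.58.1 (limma-trend, pseudocount 0.5). DESeq2 1.42.0, other filters and scalings, pools left out and a replicate block were alternatives. Positions came from GENCODE M21, promoters from RefSeq (7 of 10 members matched), and near-identical copies from BLAST 2.17.0 (95% identity over 50% of a transcript). Pools came from separate animals, and no 2 pools matched within sampling noise. The members and lists were chosen with earlier results of these data known. Named are all members, each called list gene, the 2 most counted genes per list, and the 2 genes most like each member, apart from list genes that are not reported here. Other genes are marked, or named as the calls of an alternative.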

Additional observations from a re-analysis of the deposited data

Results flagged for a closer look

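In 30 groups of values examined (each genotype for the 10 genes and 5 list levels), 3 held a pool that stood apart from the others of its genotype. Chance alone gives about 1 in 20 such groups. For Flt1, knockout pool 5 was at 12.2 CPM against 8.38 to 9.38 in the other knockout pools. For Tek, wildtype pool 4 was at 3.53 CPM against 4.56 to 4.74 in the other wildtype pools. The level of the mural list was −0.105 (mean log2 CPM relative to all pools) in wildtype pool 1 against 0.0614 to 0.0891 in the other wildtype pools. On TPM, Flt1 in knockout pool 5 was at 3.08 against 2.13 to 2.73, and Tek in wildtype pool 4 at 1.73 against 1.76 to 1.83, so the Tek value of that pool lay close to the others on that scale. No cause of these was tested.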

How the results depend on the processing

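Over 20 alternative settings, the log2 changes of Vegfa, Angpt1, Tek, Hif1a and Egln3 kept their sign, at −0.23 to −0.10, −0.48 to −0.36, −0.23 to −0.070, 0.13 to 0.20 and −0.51 to −0.28. The calls of Angpt1 and Hif1a did not hold throughout. Members called numbered 1 with library totals alone, 1 with no filter, 0 without knockout pools 1 and 2, 0, 1 and 0 on TPM with pseudocounts of 0.5, 0.1 and 1, and 1 to 2 with a single pool left out. Signs of uncalled members reversed as follows. Leaving out 1 pool gave log2 changes of −0.028 to 0.13 for Flt1, −0.012 to 0.078 for Kdr, −0.068 to 0.085 for Angpt2, −0.12 to 0.072 for Epas1 and −0.17 to 0.066 for Pdgfa. On TPM with the same 3 pseudocounts, Angpt2 was at −0.058, −0.062 and −0.054 and Pdgfa at 0.045, 0.046 and 0.043. Without knockout pools 1 and 2 Epas1 was at 0.18. The cause was not tested.

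Genes of the 7 pathway lists called numbered 7 with DESeq2, 3 at a mean CPM of at least 1, 1 without knockout pools 1 and 2, and 0 to 1 with 1 pool left out. In the endothelial, mural and astrocyte lists DESeq2 called 2. Over all genes, 284 were called higher and 476 lower. Higher calls were 689 with DESeq2, 152 with no filter, 134 without knockout pools 1 and 2, 95, 99 and 94 on TPM, and 153 to 347 with 1 pool left out. Lower calls were 802 with DESeq2 and 235, 238 and 236 on TPM. No member transcript row was called under any pseudocount or filter tried. No scaling moved the median of all genes by over 0.1.

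Pools of the 2 genotypes share replicate numbers, which are not stated to pair them. Deviations of same-numbered pools correlated at 0.02, 0.02, 0.06 and −0.03, and 1 of 4 pools correlated best with its own number. No pairing was seen, though so few pools cannot exclude it. With the replicate block over pools 1 to 4, edgeR called 1 member (Hif1a, adjusted p = 0.0499, with Angpt1 at 0.0562). It also called 4 pathway genes (Cxcr4, Slc2a1, Hif3a and Pgk1) and 1 astrocyte gene (Gfap). Over all 20893 genes tested with that block, 362 were called higher and 553 lower. The log2 changes of Flt1 and Angpt2 were −0.016 and −0.015 there.

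Counts per pool were lowest for Tek, Egln3 and Pdgfa, at 236 to 393, 354 to 792 and 527 to 898. The SE of the log2 change was 0.14, 0.16 and 0.13 for these genes, and 0.15 for Epas1 at 5262 to 10384 counts. How far depth limits them was not tested.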
